A study of Mus musculus with 7 samples.

Results

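The interleukin-6 (IL-6) family was followed across the myocardium of sham-operated mice and of mice after myocardial infarction (MI). The genes were 10 of the 56980 in the deposited table and were chosen by name, with low values kept: the ligands Il6, Il11, Lif, Osm and Ctf1, the receptor chains Il6ra, Osmr, Lifr and Il6st, and the feedback inhibitor Socs3. RNA was sequenced from myocardial tissue of male mice of the inbred strain C57BL/6J, all described as wild type and 8 weeks old when obtained. The left coronary artery was ligated in the MI mice (n = 3), the sham-operated mice (n = 4) had surgery without ligation, and tissue was collected 4 days after MI. The study calls the tissue of the MI mice ischemic, and how it was cut from border and remote myocardium is not given in the sources used here. The values are FPKM, the fragments counted on a gene relative to its length and to the fragments of the library, so levels of different genes are compared here per length.

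The IL-6 family cytokines share a signal-transducing receptor chain, gp130, which Il6st encodes. A ligand-specific chain, such as the IL-6 receptor (Il6ra), the oncostatin M receptor (Osmr) or the leukaemia inhibitory factor receptor (Lifr), joins gp130, and the complex activates Janus kinases and the transcription factor STAT3. STAT3 induces Socs3, which binds gp130 and the kinases and damps the signal, and in the heart the pathway is known for roles in cardiomyocyte survival, hypertrophy, inflammation and scar formation.

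Sequencing depth, recovered from the FPKM values, was 19977713 to 23610870 fragments per mouse, with overlapping ranges in the groups. MI replicate 2 stood apart from the other MI mice. Mitochondrial genes held 28.2% of its fragments, 13.6% and 14.9% in MI replicates 1 and 3, and 26.5% to 27.4% in the sham-operated mice. Results that rest on that mouse are therefore given with and without it. Without it, 2 against 4 mice allow no exact permutation p under 0.133 when the two-sided p is 2 times the smaller tail, as here. Each of the 10 genes was at 0.133. All 6 cardiomyocyte markers were present in all mice, with a summed FPKM of 11200 to 12300 in the sham-operated mice and 7910, 11400 and 8190 in MI replicates 1 to 3.

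RefSeq held promoter windows, the 250 bases before an annotated transcript start on GRCm38.p6, for 9 of the 10 genes (11 windows), all but Osm. The windows were searched on both strands for letters bound by 3 transcription factors that act in this pathway or in its induction. The STAT letters TTCNNNGAA were present in 7.02% of all 32851 windows of this length, the AP-1 letters TGANTCA in 6.75% and the NF-kB letters (GGG, any 2 bases, TT, any base, CC) in 4.11%. Of the 11 windows of the family, 1 held the STAT letters, 3 the AP-1 letters and 1 the NF-kB letters. The 4 windows with a match are printed 5′ to 3′, without bases in annotated exons of the gene and with the matched letters in capitals, because they belong to the inhibitor and to 3 ligands whose values follow. A match is a description of the letters and says nothing of binding.
Socs3, chr11:117969452-117969616, minus strand, bases 250 to 86 before the start, STAT letters at 154 to 146: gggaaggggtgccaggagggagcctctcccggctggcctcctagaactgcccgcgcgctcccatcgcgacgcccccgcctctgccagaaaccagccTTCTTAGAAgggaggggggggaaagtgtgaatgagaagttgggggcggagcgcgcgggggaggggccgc
Il6, chr5:30012864-30013113, plus strand, AP-1 letters at 249 to 243 and NF-kB letters at 44 to 35 before the start: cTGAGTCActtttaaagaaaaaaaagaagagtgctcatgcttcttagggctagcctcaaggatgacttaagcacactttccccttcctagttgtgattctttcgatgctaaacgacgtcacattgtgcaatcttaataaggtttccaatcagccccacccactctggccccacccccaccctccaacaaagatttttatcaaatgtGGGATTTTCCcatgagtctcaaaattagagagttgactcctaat
Il11, chr7:4778142-4778391, minus strand, the second of its windows, AP-1 letters at 98 to 92 before the start: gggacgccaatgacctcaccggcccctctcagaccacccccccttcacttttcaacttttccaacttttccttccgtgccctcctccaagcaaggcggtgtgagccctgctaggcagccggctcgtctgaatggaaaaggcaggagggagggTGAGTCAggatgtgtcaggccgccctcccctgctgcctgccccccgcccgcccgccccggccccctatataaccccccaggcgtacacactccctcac
Lif, chr11:4257318-4257556, plus strand, bases 250 to 12 before the start, AP-1 letters at 228 to 222: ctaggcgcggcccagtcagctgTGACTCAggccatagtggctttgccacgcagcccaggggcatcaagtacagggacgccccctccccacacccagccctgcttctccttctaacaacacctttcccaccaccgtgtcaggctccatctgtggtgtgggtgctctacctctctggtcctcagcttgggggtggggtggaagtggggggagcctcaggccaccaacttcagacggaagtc

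Across the family, the ligands Il6, Lif and Osm, the receptor chains Il6ra and Osmr, and Socs3 had higher mean levels in the MI mice, from 2.14-fold for Il6ra upwards, and most of this lay in MI replicates 1 and 3. Il11 and Il6st also had higher means in MI, whereas Ctf1 and Lifr had lower ones. None of the 6 genes tested passed an adjusted p of 0.05 in all 7 mice (limma, run on the 11431 genes whose FPKM reached 1 in 3 or more mice). Without MI replicate 2, 4 of the 6 were higher and 1 was lower at that threshold. In that fit 57% of all genes tested were higher and 14.7% lower, so those counts are close to the share among all genes. Il6ra, 1 of those 4, reached the filter through the MI mice, since it was under an FPKM of 1 in every sham-operated mouse, so a higher value in MI was a condition of its test. Of all genes tested, 6.81% would have missed the filter by their sham-operated mice alone, and without Il6ra the counts were 3 higher and 1 lower of 5. In bulk tissue, fewer cells of a type and less RNA per cell cannot be told apart.

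Il6 (ENSMUSG00000025746, chr5:30013114-30019981, plus strand) encodes the founding cytokine of the family, which is secreted in acute inflammation. Its FPKM was 0.0109, 0, 0.0626 and 0 in sham replicates 1 to 4 and 1.45, 0.0757 and 0.549 in MI replicates 1 to 3. These values rested on 1, 0, 6 and 0 fragments in the sham-operated mice and on 129, 7 and 53 in the MI mice. Every MI mouse lay above every sham-operated mouse, although MI replicate 2 exceeded sham replicate 3 by 1 fragment. The mean was 0.692 ± 0.698 (SD, n = 3) in MI and 0.0184 ± 0.0299 (SD, n = 4) in sham, a ratio of 37.6, or 54.4 without MI replicate 2 and 17 without MI replicate 1. Of the 7 sham fragments 6 came from sham replicate 3, so the ratio rests on that mouse. Without it 1 sham fragment was left, and the ratio pooled over mice was 178 with an exact 95% counting interval of 31.6 to 7070, which covers counting error only. The exact permutation p was taken over the 35 splits of the mice, two-sided as 2 times the smaller tail. It was 0.0571, the smallest that definition allows here, and 0.349 after adjustment over the 30504 genes above 0.

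Lif (ENSMUSG00000034394, chr11:4257557-4272514, plus strand) encodes leukaemia inhibitory factor, which signals through Lifr and gp130. Its FPKM was 0.0803, 0.0519, 0.0863 and 0.0338 in the sham-operated mice and 0.734, 0.119 and 0.629 in the MI mice, from 3 to 9 and from 12 to 71 fragments. The groups did not overlap, and MI replicates 1 and 3 were far above MI replicate 2. The MI mean of 0.494 ± 0.329 (SD, n = 3) was 7.83 times the sham mean of 0.0631 ± 0.0246 (SD, n = 4), and 10.8 times without MI replicate 2 (exact permutation p = 0.0571, adjusted 0.349).

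Osm (ENSMUSG00000058755, chr11:4236420-4241026, plus strand) encodes oncostatin M, a product mainly of macrophages, neutrophils and T cells. Its FPKM was 0.0524, 0.0904, 0 and 0.0392 in sham and 0.882, 0.0693 and 0.598 in MI, where it rested on 49, 4 and 36 fragments. MI replicate 2 lay within the range of the sham-operated mice, so the groups overlapped, and the other MI mice were above it. The ratio of the means, 0.516 ± 0.412 (SD, n = 3) over 0.0455 ± 0.0373 (SD, n = 4), was 11.3, or 16.3 without MI replicate 2 and 7.33 without MI replicate 1 (exact permutation p = 0.114, adjusted 0.431).

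Il11 (ENSMUSG00000004371, chr7:4772373-4782859, minus strand) encodes interleukin-11, a cytokine linked to fibroblast activation. It was the ligand with the lowest mean in MI among the chosen members, with an FPKM of 0, 0.0174, 0.113 and 0 in sham and 0.364, 0.0334 and 0.368 in MI. MI replicates 1 and 3 held 21 and 23 fragments and MI replicate 2 held 2, fewer than the 7 of sham replicate 3, so the groups overlapped. The mean was 0.255 ± 0.192 (SD, n = 3) against 0.0325 ± 0.054 (SD, n = 4), a ratio of 7.85, or 11.3 without MI replicate 2 (exact permutation p = 0.114, adjusted 0.431). Sham replicate 3 held 7 of the 8 sham fragments, and without it the ratio pooled over mice was 43.3 with an exact 95% counting interval of 7.4 to 1750. That interval covers counting error only, not the spread between mice, and it leaves out the sham mouse that made the groups overlap.

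Ctf1 (ENSMUSG00000042340, chr7:127712736-127718192, plus strand) encodes cardiotrophin-1, which acts on cardiomyocytes through Lifr and gp130, and it was the ligand with the highest level in the sham-operated mice. Its FPKM was 1.63, 1.76, 1.53 and 1.89 in sham and 1.24, 1.44 and 1.5 in MI, with 109 to 116 and 82 to 108 fragments. Every MI mouse lay below every sham-operated mouse, with MI replicate 3 close beneath sham replicate 3. Rescaled to TPM, which sets every library to the same total, the groups overlapped and the log2 fold change was -0.068 (limma adjusted p = 0.708). The ratio of the means was 0.819, or 0.806 without MI replicate 2, and the log2 fold change of FPKM + 1 was -0.17 (SE 0.091, limma adjusted p = 0.174), or -0.19 (limma adjusted p = 0.0844) without that mouse. Its exons share 87 bases with those of Ctf2 on the opposite strand, and the strand setting of the counting is not given in the sources used here. The level of Ctf2 was 0.0238 in sham replicate 1 and 0 in the other mice.

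**Figure D1:**
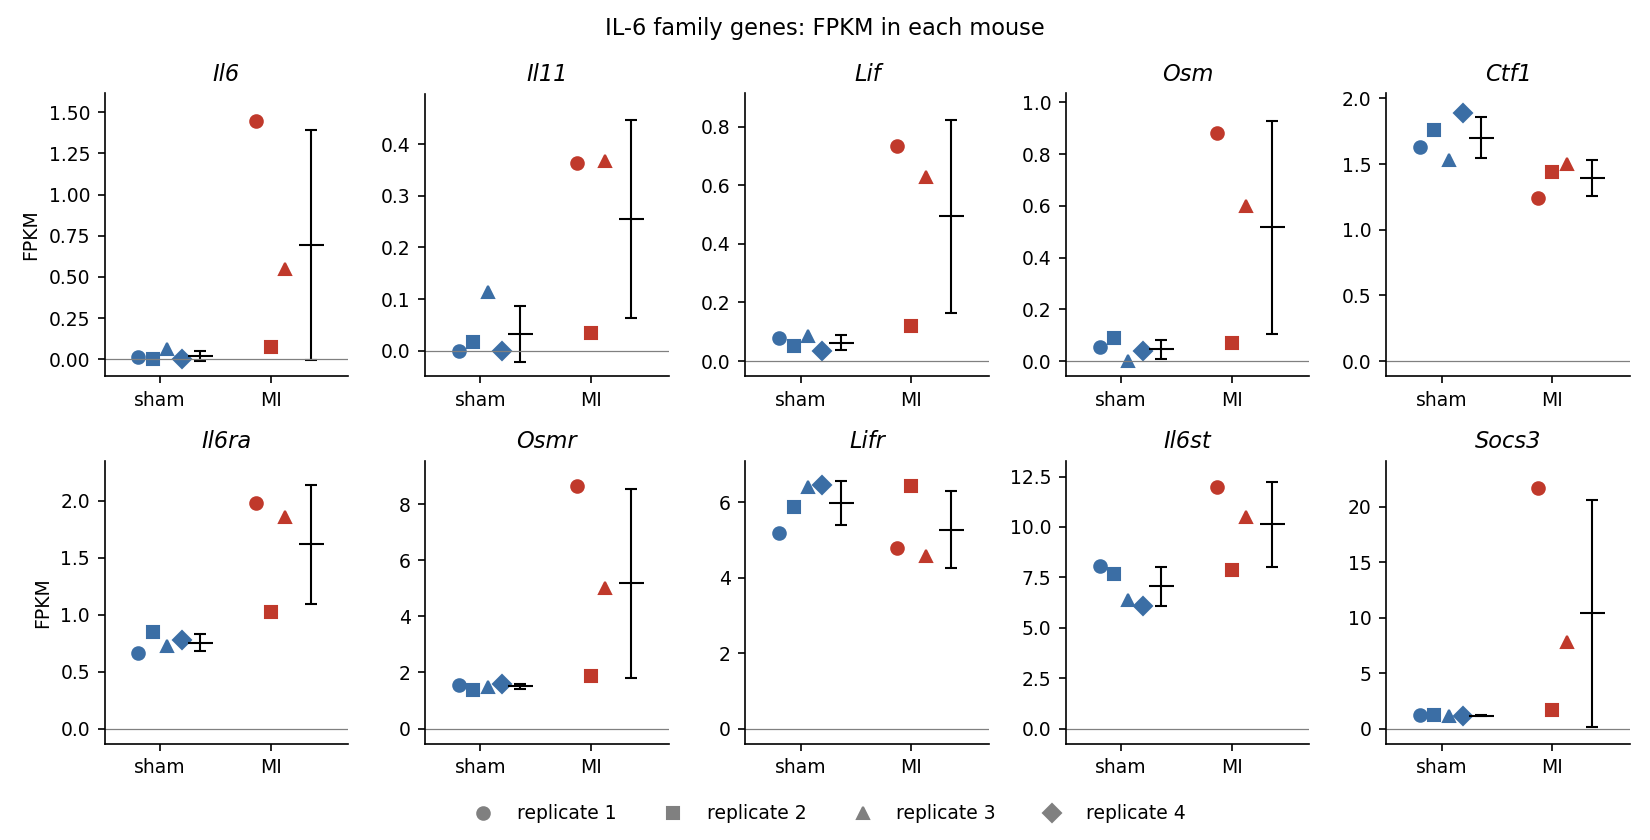
FPKM (vertical axes, linear, a scale for each gene) of the 10 IL-6 family genes in sham-operated (blue, n = 4) and MI mice (red, n = 3), a marker shape for each replicate number, with the mean and SD in black at the right of each group. MI replicate 2 (red square) is the lowest MI mouse for 8 of the 10 genes, and Ctf1 is the gene whose MI mice all lie below the sham-operated mice.

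Il6ra (ENSMUSG00000027947, chr3:89864059-89913196, minus strand), the chain that binds IL-6, had the lowest level of the receptor genes among the chosen members. Its FPKM was 0.667, 0.846, 0.727 and 0.781 in sham and 1.98, 1.02 and 1.86 in MI, from 164 to 201 and from 252 to 480 fragments. The groups did not overlap, and here MI replicate 2 also stood above the sham-operated mice. The MI mean of 1.62 ± 0.525 (SD, n = 3) was 2.14 times the sham mean of 0.755 ± 0.0762 (SD, n = 4), and 2.54 times without MI replicate 2. The log2 fold change of FPKM + 1, in a test it entered only through the MI mice, was 0.56 (SE 0.15, limma adjusted p = 0.108), and without MI replicate 2 it was 0.73 (SE 0.076, limma adjusted p = 0.000154). Its exons share 242 bases with the antisense gene Gm42809, from which its reads cannot be told apart without strand.

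Osmr (ENSMUSG00000022146, chr15:6813577-6874969, minus strand), the chain specific to oncostatin M, had an FPKM of 1.57, 1.39, 1.48 and 1.59 in the sham-operated mice. In MI replicates 1 to 3 it was 8.64, 1.88 and 5, from 2700, 611 and 1695 fragments. All MI mice lay above the sham-operated mice, and MI replicate 1 was the highest. The ratio of the means, 5.17 ± 3.38 (SD, n = 3) over 1.51 ± 0.09 (SD, n = 4), was 3.43, or 4.53 without MI replicate 2 and 2.28 without MI replicate 1. The log2 fold change of FPKM + 1 was 1.13 (SE 0.36, limma adjusted p = 0.108), rank 471 of the 11431 genes tested when ordered from the highest, and it was 1.60 (SE 0.17, limma adjusted p = 0.000184) without MI replicate 2.

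Lifr (ENSMUSG00000054263, chr15:7090614-7197489, plus strand), the chain used by LIF and cardiotrophin-1 and, with gp130, by oncostatin M in some settings, had a lower mean in MI, where Osmr, which lies near it on the chromosome, had a higher one. Its FPKM was 5.18, 5.86, 6.4 and 6.46 in sham and 4.79, 6.43 and 4.58 in MI. MI replicates 1 and 3 lay below the sham-operated mice and MI replicate 2 near their top, so the groups overlapped. The MI mean of 5.27 ± 1.01 (SD, n = 3) was 0.882 times the sham mean of 5.98 ± 0.591 (SD, n = 4), and 0.784 times without MI replicate 2. The log2 fold change was -0.16 (SE 0.13, limma adjusted p = 0.352) and was -0.29 (SE 0.088, limma adjusted p = 0.0213) without MI replicate 2. Rescaled to TPM it was 0.0063, so its direction depended on the scaling.

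Il6st (ENSMUSG00000021756, chr13:112464070-112510086, plus strand), the gp130 chain shared by the family, had the highest mean level of the chosen members in the sham-operated mice, although Lifr was higher in sham replicates 3 and 4. Its FPKM was 8.08, 7.65, 6.38 and 6.09 in sham and 12, 7.87 and 10.5 in MI, from 2134 to 4581 fragments. MI replicate 2 lay between sham replicates 1 and 2, and the other MI mice lay above all of them. The MI mean of 10.1 ± 2.09 (SD, n = 3) was 1.44 times the sham mean of 7.05 ± 0.964 (SD, n = 4), and 1.6 times without MI replicate 2. The log2 fold change was 0.46 (SE 0.16, limma adjusted p = 0.109) and 0.61 (SE 0.12, limma adjusted p = 0.00289) without that mouse. It was smaller when libraries were scaled by their median log-ratio (0.21) or by quantiles (0.20).

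Socs3 (ENSMUSG00000053113, chr11:117966079-117970047, minus strand), the feedback inhibitor whose window holds the STAT letters, had the widest FPKM range of the chosen members among the MI mice. Its FPKM was 1.21, 1.21, 1.1 and 1.14 in sham, from 75 to 89 fragments, and 21.7, 1.65 and 7.81 in MI, from 1557, 123 and 606 fragments. The sham-operated mice were nearly alike, all MI mice lay above them, and MI replicate 1 was far above MI replicates 2 and 3. The MI mean of 10.4 ± 10.3 (SD, n = 3) was 8.93 times the sham mean of 1.16 ± 0.0517 (SD, n = 4), 12.7 times without MI replicate 2 and 4.06 times without MI replicate 1. The log2 fold change of FPKM + 1 was 1.90 (SE 0.62, limma adjusted p = 0.108), rank 114 of 11431, and 2.71 (SE 0.33, limma adjusted p = 0.000311) without MI replicate 2.

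Counted together, 4 of the 6 genes tested (Il6ra, Osmr, Il6st and Socs3) were higher in MI at an unadjusted limma p under 0.05, a rule that 29.5% of all genes tested passed, and 0 were lower, against 9.85%. Without Il6ra, which reached the filter through the MI mice, this was 3 of 5. With median log-ratio scaling 19% of all genes tested were higher and 19.6% lower at that threshold, and 3 members were higher and 1, Ctf1, lower. At an adjusted p under 0.05 the counts were 0 and 0, against 0.0175% and 0.00875% of all genes tested. Il6, Il11, Lif and Osm missed the filter on low values. With every gene above 0 in the fit, 8 of the 10 were higher at an unadjusted limma p under 0.05, against 20.6%, and 0 were lower, against 4.77%. In that fit 0 of the 10 passed the adjusted threshold, against 0.0656% of genes higher and 0.00328% lower. Every MI mouse lay above every sham-operated mouse for 5 of the 10 genes, against 12% of the genes above 0, and below for 1, against 4.34%. Of the 6 genes tested this held for 3, against 16.1% of the genes tested, and for 1, against 9%, or for 2 and 1 of 5 without Il6ra. Without MI replicate 2, 8 of the 10 genes lay above, against 43.4% of the genes above 0, and 2 below, against 8.62%. MI replicate 2 alone lay above every sham-operated mouse for 5 of the 10 genes, which 19.3% of the genes above 0 did. In that mouse the ratio to the sham mean was highest for Il6, at 4.12, and between 0.845 (Ctf1) and 1.89 (Lif) for the others. The median log2 fold change over all genes tested was 0.21, and it was 0.42 after rescaling to TPM and 0.0036 after scaling by the median log-ratio. Relative to that median of 0.21, Il6ra, Osmr, Il6st and Socs3 lay above and Ctf1 and Lifr below.

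**Figure D2:**
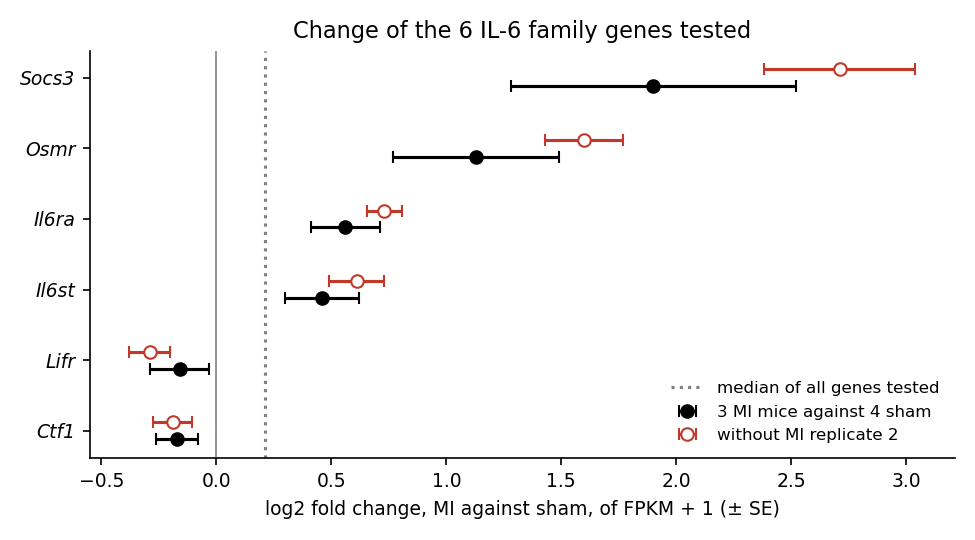
Log2 fold change of FPKM + 1, MI against sham (horizontal axis, limma, bars are the SE), for the 6 IL-6 family genes tested, with all 7 mice (filled black) and without MI replicate 2 (open red). Socs3 moves from 1.90 to 2.71 and Osmr from 1.13 to 1.60 without that mouse, and the dotted line is the median of all genes tested, 0.21 in all mice.

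The genes of the family were ordered by mean FPKM within each group. In the sham-operated mice the order of mean FPKM was Il6st, Lifr, Ctf1, Osmr, Socs3 and Il6ra, and then Lif, Osm, Il11 and Il6 at 0.0631 or less. The neighbours Il6st and Lifr, and Ctf1 and Osmr, overlapped between mice, as did the neighbours among the last 4 ligands, and the other neighbours did not. In the MI mice the order was Socs3, Il6st, Lifr, Osmr, Il6ra, Ctf1, Il6, Osm, Lif and Il11, and the range of each overlapped that of the next except between Il6st and Lifr. Genes further apart in that order could still be separate, as Lifr and Il6ra were.

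The receptor chains were also set against each other within each mouse, as a difference of log2(FPKM + 1), which 3 pairs of genes and exact permutation tests covered. Osmr minus Lifr was -1.27, -1.52, -1.58 and -1.53 in the sham-operated mice and 0.73, -1.37 and 0.11 in the MI mice. On the FPKM scale, Osmr was 0.231 to 0.303 times Lifr in sham, 1.8 and 1.09 times in MI replicates 1 and 3, and 0.292 times in MI replicate 2. Osmr thus exceeded Lifr in 2 of the 3 MI mice and in 0 of the 4 sham-operated mice. The difference between the group means was 1.3 (exact permutation p = 0.114, adjusted over the 3 pairs 0.257), and 1.89 without MI replicate 2 (exact permutation p = 0.133).

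Osmr minus Il6st was -1.82, -1.85, -1.58 and -1.45 in sham and -0.43, -1.62 and -0.94 in MI, a difference of 0.68 (exact permutation p = 0.171, adjusted 0.257), or 0.99 without MI replicate 2 (exact permutation p = 0.133). MI replicates 1 and 3 lay above the sham-operated mice and MI replicate 2 lay within their range. Il6ra minus Il6st was -2.45, -2.23, -2.10 and -1.99 in sham and -2.12, -2.14 and -2.01 in MI, with all MI mice inside the sham range. The difference on that scale was 0.10 (exact permutation p = 0.571, adjusted 0.571), and 0.12 without MI replicate 2 (exact permutation p = 0.667). It depended on the pseudocount, since Il6ra was below 1 FPKM in sham. On the FPKM scale Il6ra was 0.0826, 0.111, 0.114 and 0.128 times Il6st in sham and 0.165, 0.129 and 0.176 times in MI, so every MI mouse lay above every sham-operated mouse, MI replicate 2 only just. With a pseudocount of 0.1 the difference was 0.45 (exact permutation p = 0.114).

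**Figure D3:**
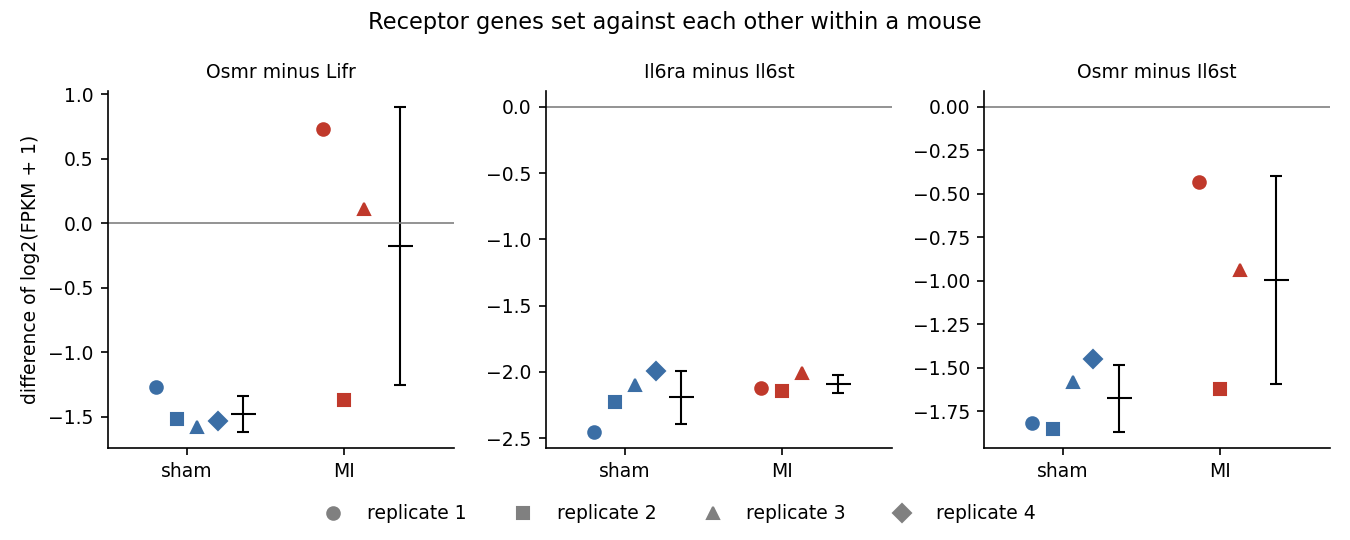
Difference of log2(FPKM + 1) between receptor genes within each mouse (vertical axes, 0 means equal values), for Osmr minus Lifr, Il6ra minus Il6st and Osmr minus Il6st, in sham-operated (blue, n = 4) and MI mice (red, n = 3), with mean and SD in black. Osmr minus Lifr is above 0 in MI replicates 1 and 3 only, and Il6ra minus Il6st lies within the sham range in all MI mice on this scale, while the ratio of their FPKM is above it.

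The remaining genes of the pathway were taken from lists written by name. Of 11 other family cytokines and receptors, 1 passed the filter on low values, Il11ra1, the chain that binds interleukin-11. Its FPKM was 8.34, 8.9, 7.83 and 7.5 in sham and 15.6, 8.73 and 14.1 in MI, so MI replicate 2 was within the sham range. Its log2 fold change was 0.56 (SE 0.19, limma adjusted p = 0.108), and 0.79 (limma adjusted p = 0.000144) without MI replicate 2. Among those under the filter, the ligand Clcf1 and the ciliary neurotrophic factor receptor Cntfr, through which it acts, are named here because of their values. Clcf1 was 0.267 to 0.442 in sham and 2.82, 0.344 and 1.03 in MI, with MI replicate 2 inside the sham range. Cntfr was 0.393 to 0.791 in sham and 1.87, 0.993 and 1.31 in MI, the 1 of the 11 genes whose groups did not overlap, against 12% of the genes above 0. Il31 was listed at 0 in every mouse.

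Of the 10 genes of signal transduction, 9 were tested, 3 were higher in MI at an unadjusted limma p under 0.05, against 29.5% of all genes tested, and 0 passed the adjusted threshold. The median log2 fold change of the 9 was 0.50, and 0.69 without MI replicate 2, where 6 passed an adjusted p of 0.05, against 57%. The 3 were the kinases Tyk2 (log2 fold change 0.65, SE 0.20) and Jak2 (0.56, SE 0.17) and Pias3, an inhibitor of STAT3 (0.54, SE 0.14), each at a limma adjusted p of 0.108. Without MI replicate 2 their log2 fold changes were 0.92, 0.77 and 0.71, at limma adjusted p-values of 5.41e-05, 0.000188 and 0.000113. Stat3 itself had an FPKM of 9.02, 9.25, 9.15 and 10.4 in sham and 14.4, 9.02 and 13.1 in MI, with MI replicate 2 at the lowest sham value. Its log2 fold change was 0.31 (SE 0.16, limma adjusted p = 0.163), and 0.50 (limma adjusted p = 0.000882) without MI replicate 2. Jak1, a kinase bound to gp130, had a log2 fold change of 0.16 (SE 0.093, limma adjusted p = 0.205), and 0.22 (limma adjusted p = 0.0209) without MI replicate 2. Socs1, the relative of Socs3, is named because of its values: it was under the filter, at 0.107 to 0.136 in sham and at 1.4, 0.119 and 0.546 in MI.

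Of the 17 genes known to respond to STAT3, 12 were tested and 11 were higher in MI at an unadjusted limma p under 0.05, against 29.5% of all genes tested. None passed the adjusted threshold in all mice, and without MI replicate 2 the count at an adjusted p under 0.05 was 11 of 12, against 57%. The median log2 fold change of the 12 was 1.06, against 0.21 over all genes tested, and 1.58 against 0.33 without MI replicate 2. Timp1 reached the filter only with the MI mice, and without it 10 of 11 were higher, in all mice at the unadjusted threshold and without MI replicate 2 at the adjusted one, with medians of 0.93 and 1.36. The list was chosen with earlier results of these data known, so these counts describe it and are not an independent test. These genes respond to other signals too, and their values do not separate STAT3 from those.

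The largest log2 fold change among the 12 tested was that of Timp1, an inhibitor of matrix metalloproteinases. Timp1 reached the filter only with the MI mice, so a high value in MI was a condition of its test. Its FPKM was 1.1, 1.2, 0.923 and 0.723 in sham and 112, 2.68 and 44.6 in MI, so all MI mice were above the sham-operated mice (log2 fold change 3.75, SE 1.02, limma adjusted p = 0.108). Serpina3n, a serine protease inhibitor of the acute phase, was 3.09 to 3.98 in sham and 135, 8.24 and 85 in MI (3.39, SE 0.83, limma adjusted p = 0.108). Mt2, a metallothionein, was 11.7 to 18.7 in sham and 99.3, 31.6 and 97.3 in MI (2.17, SE 0.40, limma adjusted p = 0.108). The groups did not overlap for these 3 genes, and MI replicate 2 lay between the sham-operated mice and the other MI mice in each. Without MI replicate 2 their log2 fold changes were 5.18, 4.57 and 2.71, at limma adjusted p-values of 1.97e-05, 3.64e-06 and 1.66e-05.

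Junb, an AP-1 subunit, was 5.74 to 6.51 in sham and 47.4, 6.43 and 29.4 in MI, with MI replicate 2 inside the sham range (log2 fold change 1.63, SE 0.57, limma adjusted p = 0.109, or 2.41 at 3.11e-05 without that mouse). Cebpb, the tested gene of the list that did not pass the unadjusted threshold, had a log2 fold change of 0.062 (SE 0.18, limma adjusted p = 0.801). Hp, haptoglobin, and Saa3, a serum amyloid A, are acute-phase genes under the filter and are named because of their values. Hp was 0.0718 to 0.358 in sham and 72.8, 0.428 and 82.5 in MI, and Saa3 was 0.0146 to 0.106 in sham and 68.9, 0.636 and 7.22 in MI. The MI mouse with the highest value thus differed between these genes, MI replicate 3 for Hp and MI replicate 1 for Saa3. Not every gene of the list under the filter had such values. Lcn2 was 0.341 to 0.493 in sham and 1.91, 0.454 and 0.888 in MI, and Reg3b was 0 in every mouse.

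**Figure D4:**
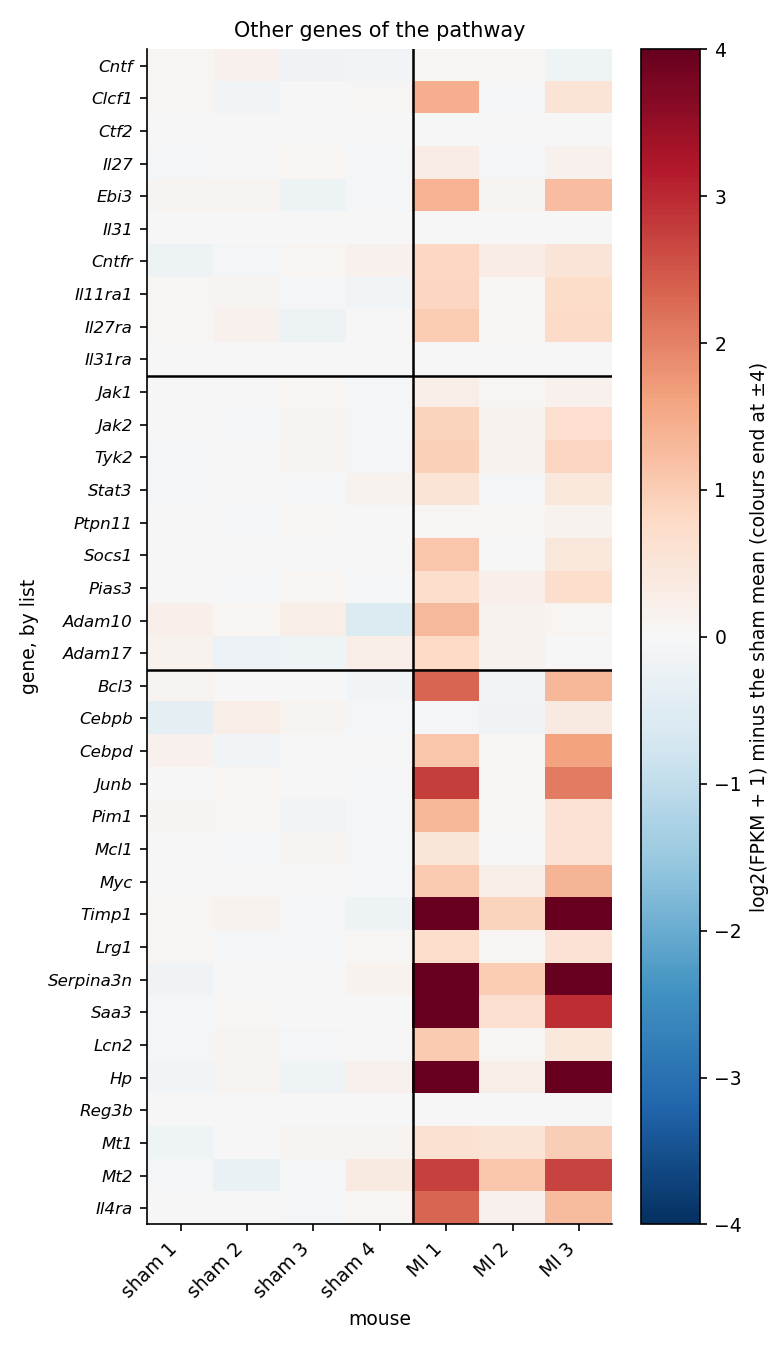
Log2(FPKM + 1) of each gene in each mouse minus the gene's mean over the sham-operated mice (colour, red higher, blue lower, ending at ±4), for genes of the lists of other family cytokines and receptors (top), signal transduction (middle) and genes that respond to STAT3 (bottom). MI replicates 1 and 3 are red for most of the genes, and MI replicate 2 is close to the sham-operated mice except for genes such as Timp1, Serpina3n and Mt2.

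Markers of cell types moved with these values. The summed FPKM of the 6 fibroblast markers was 76.7 to 90.5 in sham and 1470, 134 and 1180 in MI replicates 1 to 3, and all 6 were higher at an unadjusted limma p under 0.05, against 29.5% of all genes tested. That of the 6 macrophage markers was 112 to 149 in sham and 784, 136 and 681 in MI, with 5 of the 5 tested higher at that threshold. The 6 cardiomyocyte markers had lower sums in MI replicates 1 and 3, and 3 of the 6 were lower at that threshold, against 9.85%. Without MI replicate 2, all 6 fibroblast and all 5 tested macrophage markers were higher at a limma adjusted p under 0.05, against 57%, and all 6 cardiomyocyte markers were lower, against 14.7%. These lists were therefore highest, or for cardiomyocytes lowest, in the same MI mice as Il6, Osmr and Socs3.

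The 5 neutrophil markers summed to 0.3 to 1.29 in sham and to 13.4, 0.485 and 6.26 in MI, and the defining marker Ly6g was listed at 0 in every mouse. The 5 T cell markers summed to 0.259 to 0.486 in sham and to 3.75, 0.839 and 2.63 in MI, and none of these 10 genes passed the filter on low values. The 5 endothelial markers summed to 121 to 140 in sham and to 152, 115 and 162 in MI, with 1 of 5 higher, and the 4 smooth muscle markers to 45 to 49 and to 43.9, 43.6 and 47, with 1 of 3 tested higher and 1 lower at an unadjusted limma p under 0.05, against 29.5% and 9.85% of all genes tested. Smtn, at 37.6 to 40.4 in sham and 29.4, 33.9 and 33.5 in MI, made up most of the smooth muscle sum. Cnn1, the smooth muscle marker under the filter, was 0.507 to 0.56 in sham and 6.67, 0.685 and 5.25 in MI. Without MI replicate 2, 3 of the 5 endothelial markers, and again 1 smooth muscle marker in each direction, passed a limma adjusted p of 0.05, against 57% of all genes tested higher and 14.7% lower. The 4 mesothelial markers summed to 3.29 to 7.76 in sham and to 19.7, 15.7 and 30.6 in MI, and all 3 tested were higher at the unadjusted threshold, and at the adjusted one without MI replicate 2, against 29.5% and 57%, although Krt19 and Msln, 2 of the 3, reached the filter only with the MI mice. The mesothelial sum was thus high in MI replicate 2 as well. Wt1, the mesothelial marker under the filter, went the other way there, at 0.451 against 0.481 to 0.64 in sham. The part of cell makeup in the values of the IL-6 family was not tested.

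The genes whose pattern over the 7 mice was most like that of each member were listed by the root mean square difference of log2(FPKM + 1), after each gene's mean over the sham-operated mice was subtracted. Closest to Socs3 was Cd53, a leukocyte membrane protein, at 0.143, followed by Tnfaip6 (0.191) and Mmp19 (0.208). Closest to Osmr were Cmtm3 (0.0783), Chst11 (0.079) and the hyaluronan receptor Cd44 (0.0801). Cd44 was 0.77 to 0.991 in sham and 6.47, 1.11 and 3.55 in MI. The order of its MI mice was that of Osmr, which follows from the choice by likeness over these same mice. Cd44, Chst11, Tnfaip6 and Mmp19 were under an FPKM of 1 in every sham-operated mouse, so they reached the filter through the MI mice.

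For Il6ra the closest genes were Mxd1 (0.0323) and Virma (0.0398), and for Il6st they were Adar (0.0566), Gm14270 (0.0566) and Tnfsf10 (0.059). For Lifr they were Patj (0.0477), Galt (0.0517) and Mettl15 (0.0555), and for Ctf1 they were Pank4 (0.0479), Tfb1m (0.0481) and Clec16a (0.0484). Socs3, with the widest range among the MI mice, had the largest distances to its closest genes.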

How the data were processed

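Myocardial RNA of 3 MI and 4 sham-operated mice was sequenced, 1 library per mouse, with groups taken from the labels. The authors deposited FPKM values for 56980 genes. The submitters' processing notes name CASAVA 1.8, HISAT2, SAMtools 1.3.1, edgeR and the build mm10. The annotation, counting program and strand setting are not given in the sources used here. FPKM depends on the gene length used and on every other gene of a library, so a shift in abundant genes moves all values. The labels do not state that each library came from a separate animal, and if any did not, p-values would measure only the spread between libraries. No column of values was left out (0 of them).

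Identifiers were matched to GENCODE M21 (GRCm38; 52073, 91.4%), which gave symbols and positions. Whole fragments were recovered for 30504 of the 30504 genes above 0 (100%, within 0.02 of a whole number, a little wider for large counts) and served for depths, 19977713 to 23610870 fragments per mouse, and fragment numbers. The M21 length gave them for 11651 genes. For the others the shortest length from 20 to 120000 bases that made the values whole was taken. Such a search easily succeeds for genes with few fragments, so the 100% is no check of the numbers. The length behind FPKM was found by this search for all 10 members and exceeded their M21 exon length. The SD over mice includes counting error.

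The 11431 genes whose FPKM reached 1 in 3 or more mice were tested on log2(FPKM + 1), where the pseudocount of 1 understates changes of low genes, with limma 3.58.1 (trend) in R 4.3.3 without covariates, and adjusted by the Benjamini-Hochberg method at 0.05. Exact permutation tests covered every member and 3 receptor pairs over 35 splits. Their two-sided p is 2 times the smaller tail (smallest 0.0571). A count of splits by absolute difference was computed first and is given as an alternative. NumPy 2.4.6 and SciPy 1.17.1 in Python 3.11.15, with pandas 2.3.3 and with matplotlib 3.10.9 for plots, were used, and the tests were tested on simulated data. Promoter sequences came from RefSeq (GRCm38.p6).

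The members and lists were chosen with earlier results of these data known. All 10 members are named, and from each pathway list up to 4 tested genes with the largest absolute log2 fold change, plus Il11ra1, Stat3 and Jak1. Some genes under this rule are not reported here. As alternatives, the fit was repeated without a filter, with a pseudocount of 0.1, with a filter on the mean, TPM, quantile and median log-ratio scaling, no trend, sample weights, a replicate block, voom weights on recovered fragments and each mouse left out.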

Additional observations from a re-analysis of the deposited data

Results flagged for a closer look

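In 24 sets of sham values, the gap between the highest or lowest mouse and its nearest neighbour was compared with Dixon's critical value of 0.829 for 4 samples, which chance passes in about 1 in 20 sets. Il11 in the sham-operated mice passed it, with a gap of 0.845 of the range, because sham replicate 3 was at an FPKM of 0.113 on 7 fragments and the next mouse at 0.0174. Stat3 in the sham-operated mice passed it as well, with a gap of 0.836, because sham replicate 4 was at 10.4 and the others at 9.02 to 9.25. The MI mice, 3 in number, could not be tested in this way.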

How the results depend on the processing

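The direction of Ctf1, Il6ra, Osmr, Il6st and Socs3 held under all 17 alternatives, with log2 fold changes of -0.35 to -0.068, 0.37 to 1.05, 0.73 to 1.60, 0.20 to 0.68 and 1.16 to 2.71. Lifr ranged from -0.44 to 0.0063 and was above 0 with TPM only (limma adjusted p = 0.971). With all 7 mice, limma called 2 of all genes tested higher and 1 lower after adjustment at 0.05, and 4496 genes passed an unadjusted p of 0.05. The higher count was 5 with a pseudocount of 0.1, 20 without a filter, 10 with quantile normalization, 10 with median log-ratio scaling, 1 with voom weights and 0 with a filter on the mean, where 4740 genes passed the unadjusted threshold. The lower count was 5 with quantile normalization, 5 with median log-ratio scaling, 0 with a filter on the mean and 0 with TPM, where 4702 genes passed the unadjusted threshold.

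Leaving out each mouse gave 0 to 6512 genes higher and 0 to 1683 lower, the upper values without MI replicate 2. Of the members, it gave 0 to 4 higher and 0 to 1 lower at the adjusted threshold, 3 to 4 higher and 0 to 1 lower at the unadjusted one, 5 to 8 with all MI mice above the sham-operated mice and 1 to 2 with all below, the upper values of both without MI replicate 2, where 43.4% and 8.62% of the genes above 0 did so. The receptor differences ranged from 0.84 to 1.89 for Osmr minus Lifr, 0.39 to 0.99 for Osmr minus Il6st and 0.014 to 0.16 for Il6ra minus Il6st. With a pseudocount of 0.1 they were 1.66, 0.97 and 0.45, each at an exact permutation p of 0.114. Sample weights gave 7636 genes higher and 2316 lower, with 4 members higher and 2 lower at the adjusted threshold and 2 lower at the unadjusted one. They rested on MI replicate 3, with a weight of 437 against 0.0906 and 0.0217 for MI replicates 1 and 2, from an estimate that stopped before it converged.

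Without a filter, 8 members were higher at an unadjusted p under 0.05. Quantile normalization and median log-ratio scaling each gave 3 members higher, without Il6st, and 1 lower at an unadjusted p under 0.05, against 16.7% and 19% of all genes tested higher and 21% and 19.6% lower, and with TPM 0 members had all MI mice below the sham-operated mice. By the exact tests 0 members were under 0.05, as the smallest p is 0.0571. When splits were counted by absolute difference, a definition seen first and added as an alternative after seeing the data, 5 members were at 0.0286 (adjusted 0.195), and 14.7% of the genes above 0 were under 0.05, while Osmr minus Lifr was at 0.0571. The cause of the other shifts was not tested.

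With the replicate number as a block, limma called 0 genes higher and 0 lower after adjustment at 0.05 (2332 at an unadjusted p), and 3 members were higher at an unadjusted p. The numbers share no stated litter or day, and the deviations of same-numbered mice correlated at 0.0739, -0.0163 and -0.0802, so they were not taken as pairs. As defined for the main results, the exact tests allow no p under 0.05 here, unlike the count of splits by absolute difference. Ligand values under 10 fragments limit what can be told of Il6, Il11, Lif and Osm in the sham-operated mice.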
